A study of Mus musculus with 6 samples.

Results

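The imprinted hairpins of miR-431, miR-433, miR-127, miR-434 and miR-136 lie opposite the gene Rtl1 on mouse chromosome 12, and their 10 mature arms are described here in the neonatal intestine. The arms were chosen by hairpin position, as those listed antisense to Rtl1, but the list was drawn up with the NEC and Control values of these libraries already known, and mmu-miR-434-5p is also among the DEmiRNAs that the study selected on them. The values that NEC and Control share with that choice are therefore given as a description. All 10 arms had a row among the 604 miRNAs of the deposited table.

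The study compared necrotizing enterocolitis (NEC), an inflammatory and necrotic disease of the newborn bowel, with healthy intestine in wild-type C57BL/6J mouse pups. In the NEC group, 3 libraries came from pups that were gavaged from day 5 with 40 μl of 33% Esbilac formula every 4 h for 96 h, with PBS named in the treatment label as well. Every 12 h these pups also breathed 99.9% N2 for 100 s and then spent 10 min at 4 °C. In the Control group, 3 libraries came from pups that stayed with the dam, had neither hypoxia nor cold, and carry PBS as their treatment label. The protocol joins formula, hypoxia and cold, so their shares in any difference cannot be told apart. The sources used here do not tie libraries to pups, so errors and p-values cover the spread among these libraries only and may be technical.

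The Dlk1-Dio3 domain is an imprinted region, in which the 2 parental chromosomes are used differently. Rtl1 is a retrotransposon-derived protein gene expressed from the paternal chromosome and is known for its roles in the mouse placenta and in muscle. The transcript that runs antisense to it is made from the maternal chromosome and carries miRNA hairpins. Because those miRNAs pair without a mismatch to Rtl1 mRNA, they are known to guide its cleavage in mouse embryos, in addition to acting on other mRNAs through the seed, bases 2 to 8 of the miRNA.

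The mature sequences below, taken from RefSeq (GRCm38.p6) and written 5′ to 3′ with the seed in capitals, are shown because the arms of 1 hairpin carry different seeds and are read separately in the table.
mmu-miR-431-5p: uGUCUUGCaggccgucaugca
mmu-miR-431-3p: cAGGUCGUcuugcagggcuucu
mmu-miR-433-5p: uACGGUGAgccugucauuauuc
mmu-miR-433-3p: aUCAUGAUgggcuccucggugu
mmu-miR-127-5p: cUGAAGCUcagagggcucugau
mmu-miR-127-3p: uCGGAUCCgucugagcuuggcu
mmu-miR-434-5p: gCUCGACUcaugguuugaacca
mmu-miR-434-3p: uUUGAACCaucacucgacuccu
mmu-miR-136-5p: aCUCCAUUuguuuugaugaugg
mmu-miR-136-3p: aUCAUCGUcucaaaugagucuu

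The 10 arms had 10 different seeds. None of these seeds was shared with another of the 526 miRNAs of the table that have a RefSeq mature sequence. The 5 hairpins lie on the plus strand of chromosome 12 within 4942 bases, from 109590447 to 109595388 (GRCm38). The hairpin of miR-431 spans 109590447 to 109590537 and that of miR-433 spans 109591715 to 109591838. The hairpin of miR-127 spans 109592846 to 109592915 and that of miR-434 spans 109594506 to 109594599. The hairpin of miR-136 spans 109595327 to 109595388. Rtl1 runs on the minus strand from 109589193 to 109600330 in GENCODE M21, and its coding sequence, in a single exon, covers 109590172 to 109595403, so that all 10 arms fall inside the coding sequence. The full reverse complement of each of the 10 arms was found in the Rtl1 transcript, and of no other miRNA among the 526. This follows from the position by which the hairpins were chosen and is a check of the list.

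The levels of the 10 arms spanned a wide range, and the order was led by mmu-miR-127-3p and mmu-miR-434-5p. The table gives normalized values on a log2 scale, without counts. Sequencing depth is therefore unknown, and no counting interval can be given. By the mean over the 6 libraries, mmu-miR-127-3p held rank 25 of 604 and mmu-miR-434-5p rank 36. They were followed by mmu-miR-434-3p at rank 86, mmu-miR-127-5p at 110, mmu-miR-431-5p at 179 and mmu-miR-433-3p at 217. The arms mmu-miR-136-5p, mmu-miR-136-3p, mmu-miR-431-3p and mmu-miR-433-5p stood at ranks 238, 264, 309 and 476. The ranges of mmu-miR-127-3p and mmu-miR-434-5p over the libraries overlapped, as did those of mmu-miR-431-5p and mmu-miR-433-3p, while those of mmu-miR-434-3p and mmu-miR-127-5p did not. After back-transformation, the 10 arms held 0.791%, 1.35% and 1.05% of all values in NEC replicates 1, 2 and 3, against 0.861%, 0.952% and 0.608% in Control replicates 1, 2 and 3. The NEC and Control shares overlapped. Capture of a small RNA depends on its ends, so a level compares 1 arm between libraries more safely than 2 arms within a library.

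**Figure D1:**
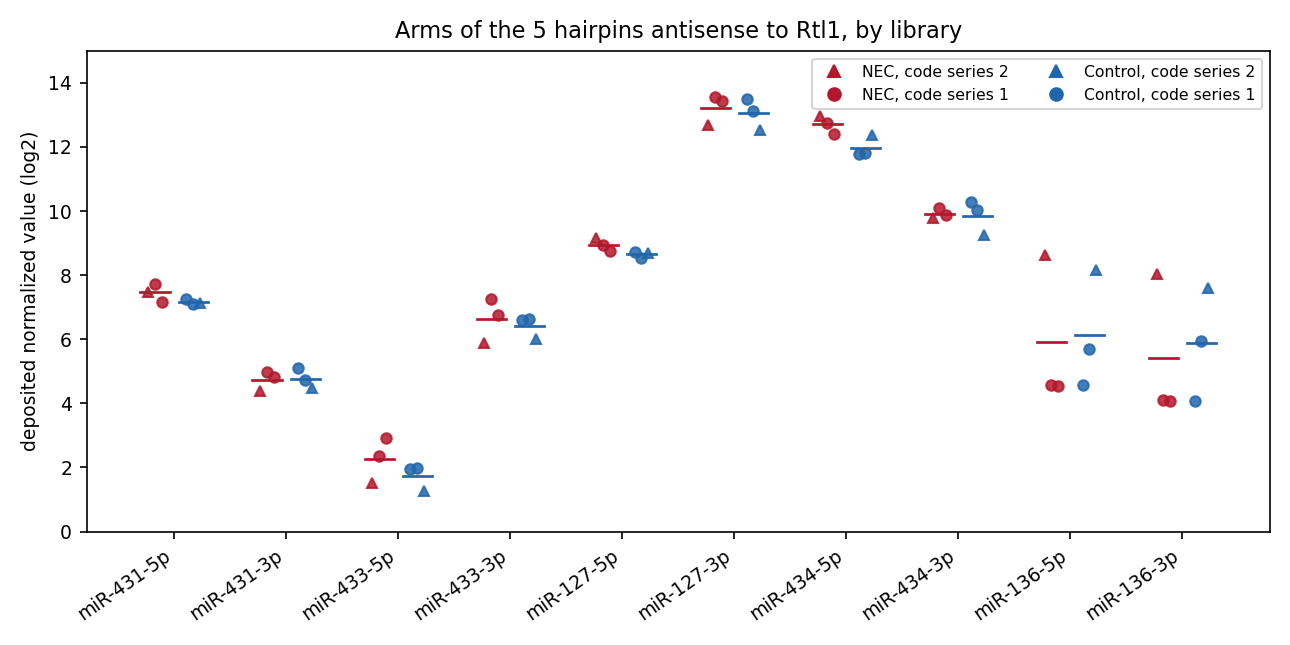
Deposited normalized value (log2) of each arm in each library, with NEC in red left of Control in blue, bars at the group means, triangles for code series 2 and circles for code series 1. The arms of miR-136 lay between 7.60 and 8.63 in the triangles and between 4.09 and 5.95 in the circles, while mmu-miR-434-5p was higher in all 3 NEC libraries than in any Control library.

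The library codes in the labels form a pair of series, and the libraries parted by these series more than by NEC. NEC replicate 1 and Control replicate 3 carry the codes of series 2, and NEC replicates 2 and 3 and Control replicates 1 and 2 those of series 1. What the series stand for is not given in the labels. Medians per library were 4.94 to 4.99 in NEC and 4.78 to 5.01 in Control. Of the miRNAs, 386 reached a log2 value of 3.32 in at least 3 libraries and were tested, among them 9 of the 10 arms, since mmu-miR-433-5p was too low. All 6 miRNAs listed for intestinal epithelium and all 4 for smooth muscle and mesenchyme had a row. Lists of other cell types had rows as well, and no other tissue was compared, so this does not test the tissue label. The log2 of the summed values was 18.22 to 18.96 in NEC and 18.28 to 19.13 in Control for epithelium. For smooth muscle and mesenchyme it was 18.64 to 18.92 in NEC and 18.75 to 19.42 in Control. The tissue is a mix of cells, and fewer cells of a type cannot be told apart from less RNA per cell.

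Among the arms, mmu-miR-434-5p had the largest difference between NEC and Control. The hairpin of miR-434 is known from rodents, and its 3p arm is known to target the translation factor gene Eif5a in mouse muscle. The log2 value of mmu-miR-434-5p was 12.96, 12.75 and 12.42 in NEC replicates 1, 2 and 3, against 11.77, 11.81 and 12.37 in Control replicates 1, 2 and 3. Every NEC value lay above every Control value, with the lowest NEC value only just above Control replicate 3. The means were 12.71 ± 0.28 in NEC and 11.98 ± 0.34 in Control (SD, n = 3 each), a log2 difference of 0.73 (standard error 0.28, limma). It was 0.59 within code series 2 and 0.80 within series 1, and 0.60 to 0.92 when each library was left out. The other arm, mmu-miR-434-3p, had 9.78, 10.09 and 9.89 in NEC replicates 1 to 3, against 10.27, 10.03 and 9.25 in Control replicates 1 to 3. These groups overlapped, and the difference was 0.07 (standard error 0.32), made up of 0.52 within code series 2 and -0.16 within series 1. It was 0.28 without Control replicate 1 and -0.23 without Control replicate 3. The 2 arms of this hairpin thus had unlike differences in series 1, where the 5p arm was higher in NEC and the 3p arm was not.

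The other arm whose groups did not overlap was mmu-miR-127-5p. It had 9.16, 8.95 and 8.75 in NEC replicates 1 to 3, against 8.71, 8.53 and 8.70 in Control replicates 1 to 3. The lowest NEC value exceeded the highest Control value by a small margin. The difference was 0.31 (standard error 0.23). It was 0.47 in code series 2, against 0.23 in code series 1, and 0.20 to 0.41 when each library was left out. The abundant arm of the hairpin, mmu-miR-127-3p, is known to target the transcriptional repressor BCL6 in human cells, and mice without the miR-127 hairpin are known for a placental defect. It had 12.68, 13.56 and 13.43 in NEC replicates 1 to 3, against 13.49, 13.12 and 12.52 in Control replicates 1 to 3. NEC and Control overlapped, and the lowest value of each group was its library of series 2. The difference was 0.18 (standard error 0.36), and within the code series it was 0.15 (series 2) and 0.19 (series 1). It was 0.45 without NEC replicate 1, 0.0088 without NEC replicate 2 and -0.08 without Control replicate 3, so that single libraries set its size and sign.

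The miR-431 hairpin is known from mouse muscle stem cells, where miR-431 restrains Pax7, a transcription factor of these cells. Its arm mmu-miR-431-5p had 7.48, 7.74 and 7.17 in NEC replicates 1 to 3, against 7.25, 7.10 and 7.12 in Control replicates 1 to 3. The Control values lay close together, and NEC replicate 3 fell between them. The difference was 0.30 (standard error 0.25), with 0.36 within code series 2 and 0.28 within series 1, and 0.17 to 0.45 when each library was left out. For mmu-miR-431-3p the values were 4.39, 4.98 and 4.81 in NEC replicates 1 to 3, against 5.12, 4.72 and 4.48 in Control replicates 1 to 3. The groups overlapped, with a difference of -0.05 (standard error 0.28), which was 0.12 without Control replicate 1 and -0.19 without Control replicate 3.

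The miR-433 hairpin gave the arm with the lowest level of the 10. For mmu-miR-433-3p, known in human cells to target the deacetylase HDAC6, the values were 5.89, 7.26 and 6.77 in NEC replicates 1 to 3, against 6.61, 6.64 and 6.01 in Control replicates 1 to 3. NEC and Control overlapped, with NEC replicate 1 the lowest of all libraries and NEC replicate 2 the highest. The difference was 0.22 (standard error 0.39), but it was -0.11 within code series 2 and 0.39 within series 1. Single libraries moved it widely, to 0.60 without NEC replicate 1 and to -0.09 without NEC replicate 2. The arm mmu-miR-433-5p had 1.51, 2.37 and 2.91 in NEC replicates 1 to 3, against 1.94, 2.00 and 1.26 in Control replicates 1 to 3. It lay under the minimum for testing in every library, and its mean difference was 0.53, with 0.25 within code series 2 and 0.67 within series 1, and 0.21 to 0.91 when each library was left out.

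The arms of miR-136 differed among libraries of 1 group far more than NEC differed from Control. The value of mmu-miR-136-5p was 8.63, 4.57 and 4.56 in NEC replicates 1 to 3, against 4.56, 5.70 and 8.16 in Control replicates 1 to 3. That of mmu-miR-136-3p was 8.02, 4.10 and 4.09 in NEC replicates 1 to 3, against 4.09, 5.95 and 7.60 in Control replicates 1 to 3. Both arms were high in the 2 libraries of series 2, low in NEC replicates 2 and 3 and Control replicate 1, and in between in Control replicate 2. The NEC minus Control difference was -0.22 (standard error 1.29) for mmu-miR-136-5p and -0.48 (standard error 1.24) for mmu-miR-136-3p. Within code series 2 the differences were 0.47 and 0.42, and within code series 1 they were -0.56 and -0.92, in the same order of arms. When the fit included the code series, the standard error of mmu-miR-136-5p was 0.32. Its difference of -0.22 cannot change in that fit, since NEC and Control are balanced within each series. Leaving out single libraries turned the sign of both arms. Without NEC replicate 1 the differences were -1.57 for mmu-miR-136-5p and -1.78 for mmu-miR-136-3p, and without Control replicate 3 they were 0.79 and 0.39, in the same order.

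**Figure D2:**
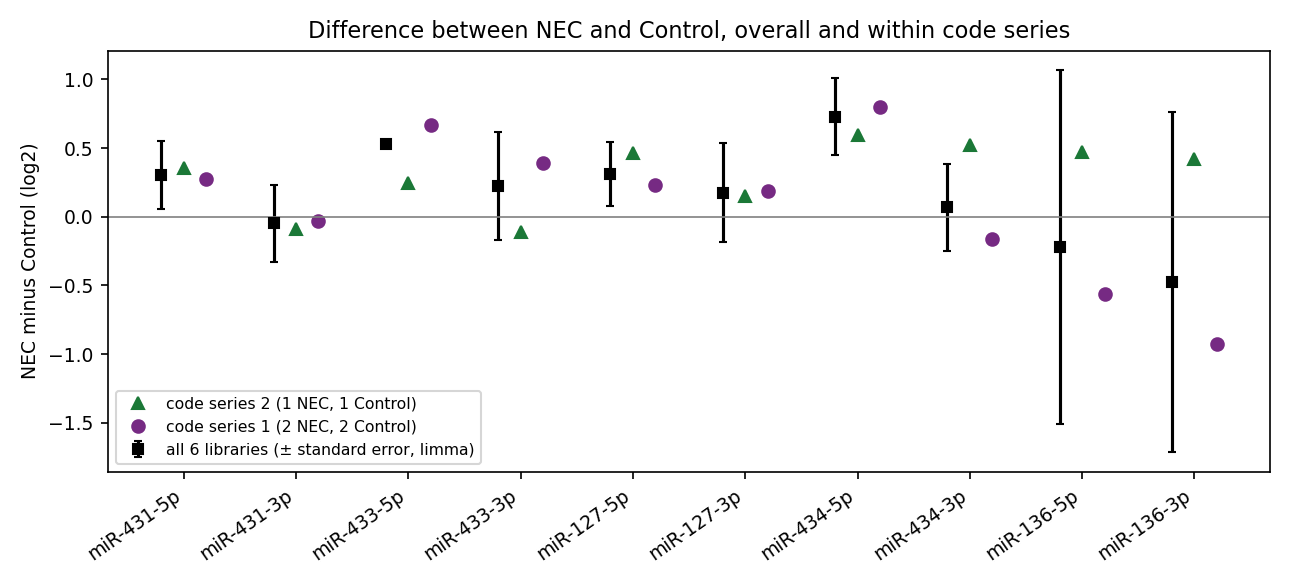
NEC minus Control difference of each arm on the log2 scale over all 6 libraries (black squares, with the standard error from limma, which mmu-miR-433-5p lacks as it was not tested), within code series 2 (green triangles) and within code series 1 (purple circles). The difference of mmu-miR-434-5p was 0.73 over all libraries, 0.59 in series 2 and 0.80 in series 1, and the differences of the miR-136 arms lay on opposite sides of 0 in the series.

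Over all 10 arms, 7 had a higher mean in NEC and 3 a lower mean, with a median difference of 0.20, beside a median of 0.0099 over the 386 miRNAs tested, of which 200 (51.8%) had a higher mean in NEC. Within both code series, 5 of the 10 arms had a higher mean in NEC, namely mmu-miR-434-5p, mmu-miR-127-5p, mmu-miR-127-3p, mmu-miR-431-5p and mmu-miR-433-5p. No arm and no other miRNA passed an adjusted p under 0.05 between NEC and Control in limma with Benjamini-Hochberg adjustment (0% of 386) while 11 (2.85%) reached 0.05 before adjustment. When limma also fitted the code series, 70 reached 0.05 before adjustment and 0 after it. The 2 arms with all NEC values above all Control values stand beside 19 such miRNAs of 386 (4.92%). Since the arms were listed with this contrast known, nothing is read from their counts against those shares.

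Markers of other cell types that may express these miRNAs also varied. For 4 miRNAs of neurons, all 4 with a higher mean in NEC, the log2 of the summed value was 8.90 to 9.35 in NEC and 8.48 to 8.80 in Control. This sum lay close to miR-128-3p alone, at 8.64 to 9.31 in NEC and 8.41 to 8.72 in Control, with overlap. The difference of miR-128-3p was -0.08 within code series 2 and 0.65 within series 1. For 4 miRNAs of striated muscle, 2 of them higher in NEC, the log2 of the summed value was 10.46 to 11.96 in NEC and 10.60 to 11.51 in Control. For leukocytes, with 2 of 3 listed miRNAs measured and none higher in NEC (miR-142a-3p was not analysed here), it was 6.62 to 7.21 in NEC and 7.41 to 8.35 in Control. The summed value of the 10 arms on the same scale was 14.04 to 14.36 in NEC and 13.66 to 14.05 in Control. The part of other cell types in the differences of the arms was not tested.

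The code series were then compared, a contrast by which the arms were not listed. With NEC or Control as a covariate in limma, 7 of the 9 tested arms differed between series 2 and series 1 at an adjusted p under 0.05, beside 222 of 386 miRNAs (57.5%). Of the arms, 3 were higher in series 2, beside 25.4% of all tested, and 4 were lower, beside 32.1%. The difference of mmu-miR-136-5p was 3.55 (standard error 0.34, limma adjusted p = 0.000236) and that of mmu-miR-136-3p was 3.25 (standard error 0.50, limma adjusted p = 0.00178). By size these were ranks 3 and 4 of all 386 miRNAs, whose median difference was -0.19. The third arm higher in series 2 was mmu-miR-434-5p, by 0.48 (standard error 0.16, limma adjusted p = 0.0348). The arms lower in series 2 were mmu-miR-433-3p by -0.87 (standard error 0.20, limma adjusted p = 0.00824) and mmu-miR-127-3p by -0.80 (standard error 0.16, limma adjusted p = 0.00510). Lower by less were mmu-miR-434-3p, by -0.56 (standard error 0.20), and mmu-miR-431-3p, by -0.47 (standard error 0.17), each at a limma adjusted p of 0.0434. The differences of mmu-miR-127-5p, 0.19 (standard error 0.16), and mmu-miR-431-5p, -0.02 (standard error 0.19), did not pass, and a shift of each library to a common median gave mmu-miR-431-5p the opposite sign.

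The calls of mmu-miR-136-5p, mmu-miR-136-3p and mmu-miR-127-3p between the code series held when any single library was left out. Without Control replicate 1, 4 of the 9 arms passed, beside 212 of 386 miRNAs. Without NEC replicate 2, NEC replicate 3 or Control replicate 2, 5 arms passed, beside 185, 187 and 210 of 386 miRNAs in the same order. The fits without NEC replicate 1 or Control replicate 3 leave 1 library in series 2. The call of mmu-miR-433-3p was lost without NEC replicate 1 (-0.62, limma adjusted p = 0.105) and in no other such fit. That of mmu-miR-434-5p held only without NEC replicate 2 (limma adjusted p = 0.0210), and without each other library its adjusted p in limma was 0.0577 to 0.244. That of mmu-miR-431-3p held only without Control replicate 2 (limma adjusted p = 0.0309), and its adjusted p was 0.0709 to 0.214 otherwise. For mmu-miR-434-3p the call held without NEC replicate 1 or NEC replicate 3, and without Control replicate 3 the difference was only -0.21 (limma adjusted p = 0.504). All 4 of the 3p arms other than that of miR-136 were lower in series 2, and they stayed below 0 after each library was shifted to a common median, where those of mmu-miR-431-3p (limma adjusted p = 0.125) and mmu-miR-434-3p (limma adjusted p = 0.114) no longer passed. The sum of the epithelial markers was 18.96 to 19.13 in series 2 and 18.22 to 18.68 in series 1, and that of the striated muscle markers was 11.51 to 11.96 in series 2 and 10.46 to 11.08 in series 1. The sum of the endothelial markers, which are the 2 arms of miR-126a, was also higher in series 2, at 15.45 to 15.67, against 14.87 to 15.12 in series 1. That of the list drawn up for pancreas, with 2 of 3 listed miRNAs measured (miR-217-5p and miR-375-3p), was lower. It was 11.89 to 11.95 in series 2, against 12.53 to 13.05 in series 1. Since miR-375 is also a miRNA of enteroendocrine cells, this sum does not show pancreatic tissue. Each sum is weighted to the most abundant miRNA of its list. Series 2 and series 1 overlapped for the other 5 marker lists. Their part in the differences of the arms was not tested. Biological and technical differences between the series cannot be told apart, as nothing else in the labels names them.

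**Figure D3:**
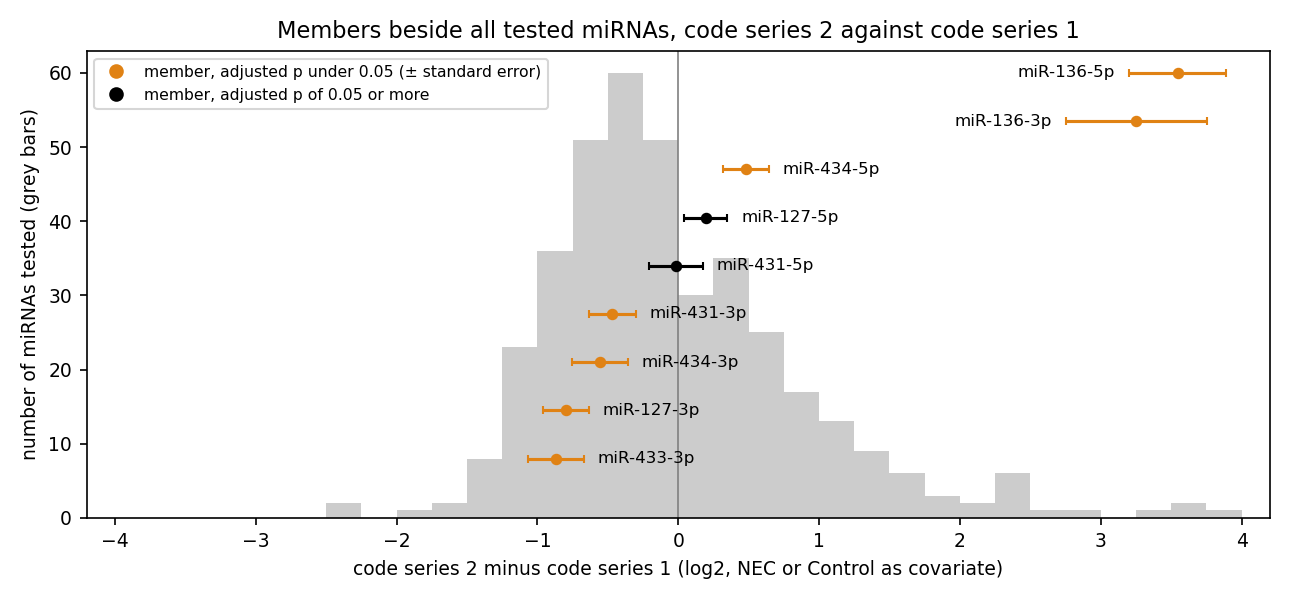
Difference between code series 2 and code series 1 on the log2 scale, with NEC or Control as a covariate, for the 9 tested arms (points with the standard error from limma, orange where the adjusted p was under 0.05, placed at arbitrary heights) over a histogram of all 386 miRNAs tested (grey bars, numbers on the vertical axis). The arms of miR-136 stood at 3.55 and 3.25, at the far right of the histogram, while the other 7 arms lay between -0.87 and 0.48.

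In sequence, the arms of miR-136 were those poorest in G and C, at 36.4% each. The other 8 arms had 45.5% to 59.1%. The part of the share of G and C in the differences between the code series was not tested. In NEC replicates 2 and 3 and Control replicate 1, libraries set apart after the values had been seen, mmu-miR-136-5p varied by only 0.0143 and mmu-miR-136-3p by 0.0194. These were the 2 smallest ranges among the 386 miRNAs tested, whose median range over the same 3 libraries was 0.44. On the deposited scale the arms were thus at nearly 1 low value in libraries of both groups. In each arm these values rose from NEC replicate 3 through Control replicate 1 to NEC replicate 2. Because the log2 transformation is not stated, the reads behind such a value are unknown. Whether it stands for any reads cannot be told, although it lies above the minimum for testing. The differences of these arms between the code series rest in part on such values. The part of the transformation in the small spread was not tested.

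The locus of miR-136 is also annotated on its other strand, as the hairpin of miR-3071 from 109595318 to 109595397 on the minus strand. The overlaps are shown because reads of either strand differ here only in orientation. Capitals mark the overlapping bases, 20 for the first pair and 19 for the second, which are exact reverse complements of each other.
mmu-miR-136-5p: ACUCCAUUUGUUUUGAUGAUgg
mmu-miR-3071-3p: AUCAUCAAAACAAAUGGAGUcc
mmu-miR-136-3p: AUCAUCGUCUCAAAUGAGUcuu
mmu-miR-3071-5p: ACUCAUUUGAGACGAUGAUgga

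The arms of miR-3071 had a value of 6.38 or more in every library, also where those of miR-136 were low. The reads behind these values are unknown as well, and mmu-miR-3071-5p varied little in series 1, from 6.60 to 6.67. The value of mmu-miR-3071-3p was 9.42, 7.02 and 6.77 in NEC replicates 1 to 3, against 6.38, 6.53 and 8.72 in Control replicates 1 to 3. That of mmu-miR-3071-5p was 8.42, 6.60 and 6.67 in NEC replicates 1 to 3, against 6.67, 6.64 and 8.03 in Control replicates 1 to 3. Both were highest in the libraries of series 2, with a difference of 2.39 (standard error 0.16, limma adjusted p = 5.36e-05) for mmu-miR-3071-3p. For mmu-miR-3071-5p it was 1.58, with a limma adjusted p of 0.000255. In Control replicate 2, where the arms of miR-136 stood above their low value, those of miR-3071 were at the level of the other libraries of series 1. The sources used here do not state how reads were divided between the strands.

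**Figure D4:**
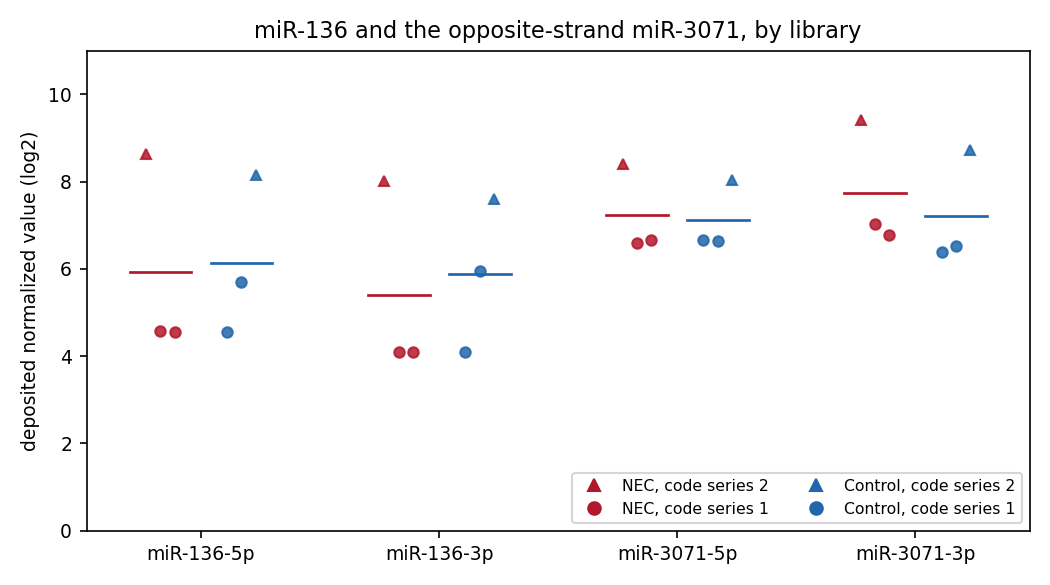
Deposited normalized value (log2) of the arms of miR-136 and of miR-3071, its neighbour on the opposite strand, in each library, with NEC in red left of Control in blue, bars at the group means, triangles for code series 2 and circles for code series 1. The arms of miR-136 went down to 4.09 in series 1, and those of miR-3071 did not go below 6.38.

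The preferred arm was the same in all 6 libraries for 4 of the 5 hairpins. The 5p arm was the higher for miR-434 and miR-431 and the 3p arm for miR-127 and miR-433. The difference of the 5p minus the 3p arm of miR-434 was 3.19, 2.66 and 2.53 in NEC replicates 1 to 3, against 1.5, 1.78 and 3.12 in Control replicates 1 to 3. It was above 3 in both libraries of series 2 and in no library of series 1. For miR-127 the same difference was -3.51, -4.61 and -4.68 in NEC replicates 1 to 3, against -4.78, -4.59 and -3.83 in Control replicates 1 to 3. It was thus nearest to 0 in the libraries of series 2. For miR-431 it was 2.74 ± 0.36 in NEC and 2.38 ± 0.25 in Control (SD, n = 3 each). For miR-433 it was -4.38 ± 0.51 in NEC and -4.69 ± 0.06 in Control (SD, n = 3 each), with the low mmu-miR-433-5p under the minimum for testing. The arms of miR-136 were close, at 0.61, 0.47 and 0.47 in NEC replicates 1 to 3, against 0.47, -0.25 and 0.56 in Control replicates 1 to 3. In NEC replicates 2 and 3 and Control replicate 1 both arms stood at their low value, so the 0.47 there cannot show an arm preference.

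**Figure D5:**
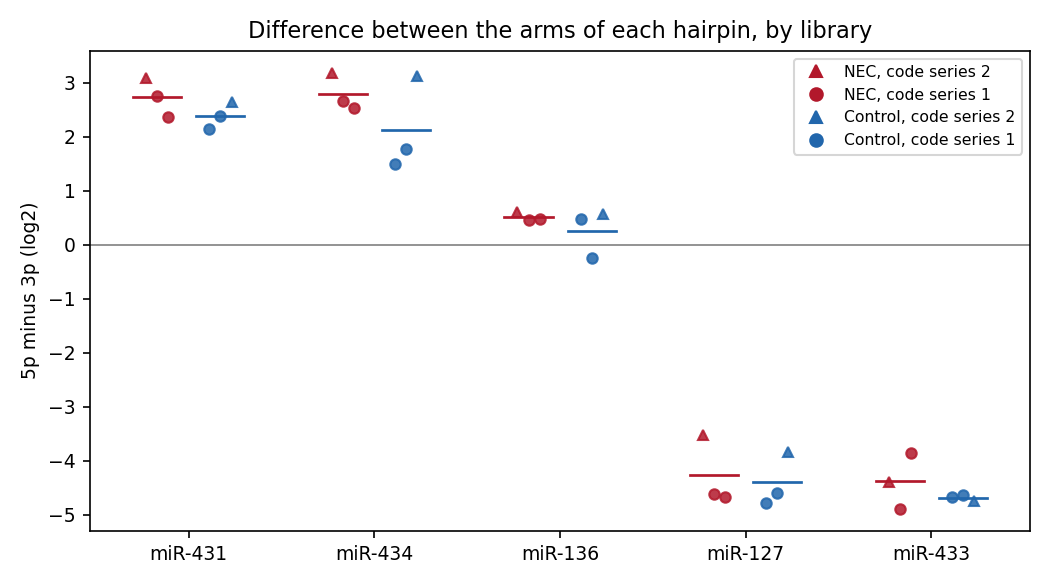
Difference of the 5p minus the 3p arm of each hairpin on the log2 scale in each library, with NEC in red left of Control in blue, bars at the group means, triangles for code series 2 and circles for code series 1. The differences of miR-431 and miR-434 lay above 0 and those of miR-127 and miR-433 below 0 in all libraries, and for miR-434 and miR-127 the triangles lay above the circles.

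The arms of miR-434 repeat each other in part. Capitals below mark the runs of 8 or more bases that stand in both arms, UUUGAACCA and CUCGACUC, shown because they cover most of each arm and include the whole of both seeds.
mmu-miR-434-5p: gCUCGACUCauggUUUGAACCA
mmu-miR-434-3p: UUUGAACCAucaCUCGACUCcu

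The arms of miR-431 share a run of 10 bases, GUCUUGCAGG, which holds the whole seed of mmu-miR-431-5p. Of 149 hairpins in the table with both arms and their sequences, 4 (2.68%) had such a shared run of at least 8 bases, and miR-434 alone had 2 of them. The other 3 hairpins opposite Rtl1 shared at most 5 bases between their arms.

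Across the 6 libraries the arms fell into patterns that did not follow the hairpins, given here as Pearson's r with no test, since the libraries share the split by code series. The arms of miR-136 moved together (r = 0.986), as did those of miR-433 less closely (r = 0.788). The arms of miR-127 (r = -0.17), of miR-434 (r = -0.35) and of miR-431 (r = 0.18) did not. For miR-136 the r includes 3 libraries in which each arm stood at nearly 1 low value. The values of mmu-miR-127-5p were more like those of mmu-miR-434-5p (r = 0.882), and those of mmu-miR-127-3p like those of mmu-miR-431-3p (r = 0.928) and opposite to those of mmu-miR-136-5p (r = -0.97). Among tested miRNAs outside the 10 arms, the nearest pattern came from the domain for 2 of the 9 tested arms and from elsewhere for 7. The pattern nearest to mmu-miR-434-5p was that of miR-758-3p (r = 0.968), and that nearest to mmu-miR-127-5p was that of miR-376b-3p (r = 0.925), both from the Mirg end of the domain. Outside the domain, the nearest to mmu-miR-127-3p was miR-183-5p (r = 0.994) and to mmu-miR-136-5p miR-190a-5p (r = 0.999).

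The other miRNAs of the Dlk1-Dio3 domain, 73 with a row and 54 tested, had for the most part a higher mean in NEC. Of the 54, 49 had a higher and 5 a lower mean in NEC, with a median difference of 0.31 and none past an adjusted p under 0.05 in limma. Over all 386 miRNAs tested, 51.8% had a higher mean in NEC, and the median difference was 0.0099. The domain list was drawn up with earlier results of these data known, so these NEC and Control counts are a description and were not tested. The 8 tested neighbours at the Meg3 and Rtl1 end, where the 5 hairpins lie, had a median of 0.22, with 7 higher and 1 lower. These cannot be taken as 8 separate measurements. They include both arms of miR-3071, at the locus of miR-136 itself. The differences of miR-3071 were 0.53 (standard error 0.86) for the 3p arm and 0.11 (standard error 0.59) for the 5p arm. Also among the 8 are miR-337-5p and miR-3544-3p, each with a difference of 0.32 (standard error 0.31). Among the tested miRNAs the largest difference was that of miR-369-5p, 0.72 (standard error 0.26), followed by miR-409-3p, 0.62 (standard error 0.39). The lowest among the tested were those of miR-487b-3p, -0.11 (standard error 0.41), and miR-540-3p, -0.08 (standard error 0.30). Domain miRNAs too low to be tested reached further in both directions, with 0.91 for mmu-miR-493-3p, without overlap of NEC and Control and like miR-369-5p a DEmiRNA that the study selected on these libraries, and -0.40 for mmu-miR-3544-5p, both named after their values had been seen. Between the code series, 17 of the 54 were higher and 17 lower in series 2 (limma adjusted p under 0.05), and the rest did not pass. Of all 386 miRNAs tested, 25.4% were higher and 32.1% lower in series 2, so nothing particular to the domain is read from these counts.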

How the data were processed

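The authors deposited 1 table of 604 miRNAs as normalized log2 values, with a column for each of 6 libraries, matched here by the library code in the labels. No column was left over. Small RNA libraries had been sequenced single-end to 50 nt, and the submitters' processing notes name mm10. The sources used here state neither the aligner, the counter and the annotation nor the log2 transformation.

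From the deposited log2 values, miRNAs at 3.32 or more (10 after back-transformation) in 3 or more libraries were fitted with limma (version 3.58.1, R version 4.3.3), two-sided, with Benjamini-Hochberg adjustment over 386 miRNAs. NEC was compared with Control without a covariate, and code series 2 with code series 1 with the condition as a covariate. The fit was tested on simulated data. All 10 arms were described. Other miRNAs named are those of miR-3071, the nearest patterns by Pearson's r, and the 2 extremes of the domain list in each direction. Single miRNAs of the marker lists are also named, as are miR-337-5p and miR-3544-3p of the domain, after their values had been seen. Members and lists were chosen with earlier results of these data known. The alternatives were a shift by the library median, no filter, a minimum of 50, a robust fit, an added constant of 5, a block for the replicate number, fits without single libraries, and fits with the code series as a term or within 1 series. Sequences came from RefSeq and the Rtl1 annotation from GENCODE. The mRNA, PCR and cell experiments were not analysed here.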

Additional observations from a re-analysis of the deposited data

Results flagged for a closer look

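For 4 of the 10 arms the NEC minus Control difference had opposite signs in the code series. Of these, mmu-miR-433-3p alone had no overlap of NEC and Control within code series 1. Its NEC minus Control difference was 0.39 in code series 1, where both NEC libraries lay above both Control libraries, and -0.11 in code series 2, with 1 library of each group. An interaction of condition and code series in limma gave -0.50 for this arm, 0.68 for mmu-miR-434-3p, 1.03 for mmu-miR-136-5p and 1.35 for mmu-miR-136-3p, each with an adjusted p of 0.953, and no miRNA passed in that fit (smallest adjusted p 0.217).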

How the results depend on the processing

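The count of miRNAs past an adjusted p between NEC and Control was 0 under every alternative except code series 1 alone, where it was 2, with no arm of the 5 hairpins among them. The median NEC minus Control difference of the 10 arms was 0.17 to 0.33 when each library was left out, 0.39 in code series 2, 0.21 in code series 1 and 0.26 without the arms of miR-136, an alternative chosen after seeing the data. With the replicate number as a block in limma, 0 miRNAs passed an adjusted p and 3 had an unadjusted p under 0.05. The median of 0.20 cannot change in that fit, since each block holds 1 NEC and 1 Control library. Deviations of same-numbered libraries from their group means had r of -0.69, 0.73 and -0.78 for replicates 1, 2 and 3. Both libraries of replicate 2 belong to code series 1, while replicates 1 and 3 each join both series. These values therefore cannot tell whether the numbers pair the libraries. Between the code series, leaving out each library gave 4 to 5 arms past the threshold and 126 to 212 miRNAs of 386, with fewer libraries in each fit. A shift by the library median left 5 arms, beside 211 of 386 miRNAs, and without the arms of miR-136, also chosen after seeing the data, 5 arms. The difference between the arms of miR-433 was -4.53 over all libraries and -3.42 with 5 added to the back-transformed values, which lowers the weight of the low 5p arm, and that of miR-127 was -4.33 over all libraries and -3.67 in code series 2. Leaving out each library moved these arm differences within -4.67 to -4.46 and -4.50 to -4.24. The depth of the libraries is unknown, so what it limits cannot be given.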
